A study of Homo sapiens with 2 samples.

Results

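The chromosome 19 ZNF genes are the protein-coding genes of human chromosome 19 whose symbols begin with ZNF and a number. GENCODE release 29 lists 251 of them, 247 had at least 1 transcript in the deposited table, and 34237 genes of any kind had one. The cells were HepG2, a line grown from a human liver cancer that keeps many hepatocyte transcripts. They carried a cassette from which doxycycline (Dox) turns on SAMD4B, in both groups. One library came from cells given 1 µg/ml Dox for 48 h, and 1 library from cells kept for 48 h without Dox. Whether the line is a single clone is not given in the sources used here. There is 1 library per group, so every value below describes these 2 libraries, no spread between replicates can be had and no test was made. No library of Dox-treated cells lacking the cassette was analysed here, so effects of Dox and of SAMD4B cannot be told apart.

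C2H2 zinc-finger proteins read DNA through tandem fingers, each of which contacts a few bases, so that the order of fingers sets the sequence bound. Most of those on chromosome 19 also carry a KRAB domain at the amino end. KRAB recruits TRIM28, which brings the histone methyltransferase SETDB1 and heterochromatin proteins, and many of these repressors bind transposable elements. The genes arose by tandem duplication and stand in clusters along both arms, in which neighbours are often close paralogues. SAMD4B belongs to the Smaug family, named after a Drosophila protein that binds hairpin loops in transcripts and brings in the deadenylation machinery.

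SAMD4B itself, which also lies on chromosome 19, was at 261 TPM with Dox and 47.5 TPM without Dox. TPM is the abundance of a transcript per unit of length, scaled to the same total in each library, and the value of a gene is the sum over its transcripts. The depth estimated from the steps of the low TPM values was 23786660 fragments with Dox and 18051349 without Dox. All 10 hepatocyte-lineage markers looked up were present in both libraries, among them AFP at 12140 TPM with Dox and 13406 without Dox. Of the markers of other lineages, PTPRC, CD3E and VWF were at 0 in both libraries, while PECAM1 had 4.55 TPM with Dox and 4.57 without Dox. In RNA from bulk cells, a lower share of cells holding a transcript and less of it per cell cannot be told apart.

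Most chromosome 19 ZNF genes were present at low levels. Of the 247, 185 reached a mean of at least 1 TPM over both libraries, 79 reached 5 TPM and 22 reached 10 TPM. A further 44 were detected below a mean of 1 TPM, and 18 were listed at 0 in both libraries. The median over the 185 was 4.29 TPM with Dox and 3.75 TPM without Dox. Together the 247 genes held 1144 TPM with Dox and 1086 TPM without Dox. A gene of the 185 had a median of 179 estimated fragments with Dox and 126 without Dox, so counting error is sizeable for the lower ones. Just below the minimum lay ZNF737, with 0.99 TPM with Dox and 0.92 TPM without Dox, and ZNF568, with 1.16 TPM with Dox and 0.69 TPM without Dox.

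The most abundant was ZNF146 (chr19:36214602-36238774), whose protein consists almost wholly of zinc fingers and carries no KRAB domain. It was at 94.5 TPM with Dox and 74.9 TPM without Dox, a log2 fold change of 0.33. Of this, the 3326-nt coding transcript held 65.2 TPM with Dox and 52.6 TPM without Dox. ZNF565, on the opposite strand, overlaps ZNF146 and was at 1.96 TPM with Dox and 3.04 TPM without Dox. Whether the counting used strand is not given in the sources used here, so fragments of the overlap cannot be told apart with certainty. The next 4 were ZNF561, at 26.9 TPM with Dox and 30.4 without Dox, ZNF444, a SCAN-domain factor, at 22.5 TPM with Dox and 25.9 without Dox, ZNF428, at 19.4 TPM with Dox and 27.6 without Dox, and ZNF581, at 23.0 TPM with Dox and 20.3 without Dox. None of the 5 differed by 1.5-fold on the scale of TPM plus 1. On transcripts of at least 600 nt, the log2 ratios of ZNF561 and ZNF444 were 0.12 and 0.16, opposite in sign to their summed TPM. In fragments relative to depth, ZNF428 had 0.67 times as many with Dox, with an exact 95% binomial interval of 0.58 to 0.77. That interval, like all given here, covers counting error only.

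**Figure D1:**
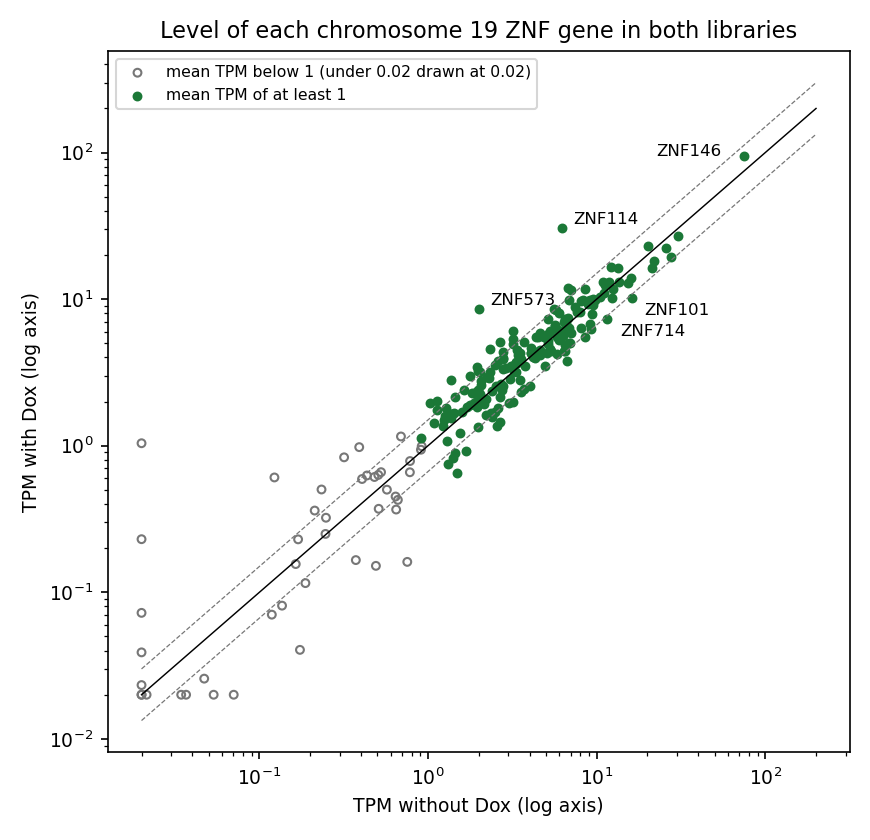
Level of each detected chromosome 19 ZNF gene with Dox (vertical axis) and without Dox (horizontal axis), in summed TPM on log axes. Filled points are the 185 genes at a mean of at least 1 TPM, open points lie below it, the solid line marks equal levels and the dashed lines a ratio of 1.5 in plain TPM, without the added 1. Most filled points follow the line, with ZNF114 and ZNF573 far above it.

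The fold change is log2((TPM with Dox + 1)/(TPM without Dox + 1)), and 1.5-fold in either direction was counted. With Dox, 9 of the 185 stood higher by 1.5-fold or more, which is 4.86%, beside 5.32% of all 11582 genes compared. The 5 at least 1.5-fold lower are 2.70% of the 185, beside 3.90% of all genes. Both shares lie near those of all genes. The counts depended on the pseudocount, and with 0.1 TPM in place of 1 TPM they were 19 higher and 15 lower, beside 7.23% and 5.52% of all genes. The median log2 fold change was 0.06 over the 185, with 106 above 0 and 79 below, against 0.02 over all genes. It was 0.06 over 191 ZNF genes on other chromosomes and -0.04 over 632 other protein-coding genes on chromosome 19. Above 0 were 57.3% of the 185, 53.0% of all genes, 62.8% of the 191 and 44.0% of the 632. The quartiles of the 185 were -0.17 and 0.23.

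Along the chromosome the 2 arms differed in direction. The 58 compared genes on the short arm, up to ZNF254, had a median of -0.08, with 24 above 0 and 34 below. On the long arm, from ZNF536, the 127 compared genes had a median of 0.10, with 82 above 0 and 45 below. On the TPM scale, the short-arm balance rested on a single cluster. Outside it, 20 of 39 short-arm genes were above 0 and 19 below. In estimated fragments the lean was not confined to that cluster. From ZNF554 to ZNF77, 4 of 5 genes had a ratio below 1, and from ZNF653 to ZNF791, 12 of 20. From ZNF557 to ZNF846, 5 of 8 were above 1. Immediate neighbours within clusters resembled each other only slightly. Of 171 adjacent pairs, 56.1% had the same sign, and the Spearman correlation of their log2 fold changes was 0.14, across genes that share fragments with paralogues and are not independent.

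**Figure D2:**
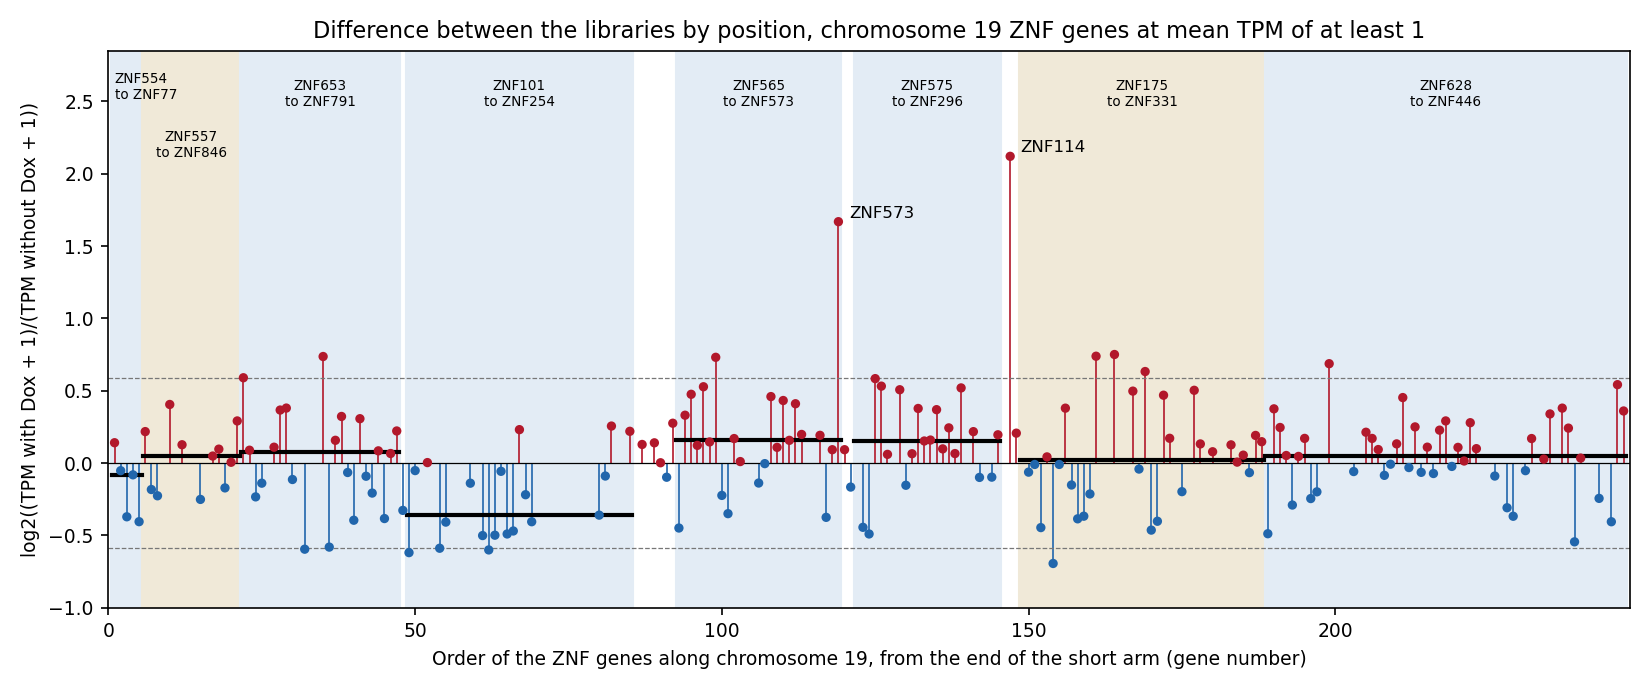
The log2 fold change of each compared chromosome 19 ZNF gene, with Dox over without Dox, against its order along the chromosome from the end of the short arm. Red points are above 0 and blue below, shading marks the 8 clusters described, black bars their medians, and dashed lines 1.5-fold. Points of the cluster from ZNF101 to ZNF254 lie mostly below 0, around a median of -0.36.

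A cluster was taken as a run of these genes in which neighbouring starts lie within 1 Mb. There were 8 such runs with at least 5 compared genes, and together they held 175 of the 185. Coordinates of genes and clusters are those of GENCODE release 29 on GRCh38. Beginning at the end of the short arm, the cluster from ZNF554 to ZNF77 (chr19:2819874-2944971) held 5 genes, all compared. ZNF554 was at 1.64 TPM with Dox and 1.39 TPM without Dox, the only one above 0 on the log2 scale. ZNF556, the most abundant of the 5, had 16.3 TPM with Dox and 21.4 TPM without Dox. The lowest was ZNF77, at 3.50 TPM with Dox and 4.95 TPM without Dox, with a log2 fold change of -0.40 and a fragment ratio of 0.69 (95% interval 0.53 to 0.90). The median of the cluster was -0.08.

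The next cluster, from ZNF557 to ZNF846 (chr19:7069444-9793180), had 11 of 16 genes compared and a median of 0.05, with 7 above 0 and 4 below. Over its 8 genes at a mean of at least 5 TPM, the median was -0.083. ZNF317 was highest, at 16.5 TPM with Dox and 12.2 TPM without Dox, a log2 fold change of 0.41 and a fragment ratio of 1.21 (1.09 to 1.35). ZNF266 was lowest, at 10.2 TPM with Dox and 12.4 TPM without Dox, a log2 fold change of -0.25 and a fragment ratio of 0.73 (0.64 to 0.84). The promoters of 4 genes in this cluster share the 12 bases CGGAAGTGACGT close to the start of transcription, between 56 and 13 bases upstream. The first 6 of these letters are the core of the site bound by ETS factors, and TGACGT followed by CA is the cAMP response element. Shown are windows of 60 bases, 5′ to 3′ on the strand of the gene, with the shared word in capitals, from RefSeq promoters on GRCh38.p14.
ZNF266 (chr19:9435561-9435620, minus strand): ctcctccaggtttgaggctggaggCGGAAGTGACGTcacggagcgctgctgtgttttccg
ZNF121 (chr19:9584525-9584584, minus strand): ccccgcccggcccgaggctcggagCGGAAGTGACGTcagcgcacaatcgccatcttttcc
ZNF561 (chr19:9621226-9621285, minus strand): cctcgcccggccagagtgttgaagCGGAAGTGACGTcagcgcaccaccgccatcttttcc
ZNF562 (chr19:9675078-9675137, minus strand): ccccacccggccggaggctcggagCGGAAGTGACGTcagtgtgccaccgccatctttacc

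On either strand, 0.256% of the 27305 promoters of 300 bases in that table held this word. Their log2 fold changes lay on both sides of 0, between -0.25 and 0.10. ZNF121, for example, was at 9.85 TPM with Dox and 9.15 TPM without Dox, a log2 fold change of 0.10, and ZNF562 had a log2 fold change of 0.0060. A match describes the letters and shows no binding.

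From ZNF653 to ZNF791 (chr19:11483427-12640098), 22 of 26 genes were compared, with a median of 0.08, 12 above 0 and 10 below. In estimated fragments the median was -0.11 over 20 genes. ZNF653, which carries no KRAB domain and represses the nuclear receptor NR5A1, was at 3.44 TPM with Dox and 1.95 TPM without Dox, a log2 fold change of 0.59. A 534-nt transcript of ZNF653, listed at 0 without Dox, held 2.35 TPM with Dox. On transcripts of at least 600 nt its log2 ratio was 0.06, from 40 fragments with Dox and 29 without Dox. ZNF20 had 4.55 TPM with Dox and 2.33 TPM without Dox, whereas the readthrough gene ZNF625-ZNF20, which shares its exons, had 1.45 TPM with Dox and 2.67 TPM without Dox. Of the 31-base words in the main transcript of the readthrough, 98.9% also occur in transcripts of other genes, so fragments can be moved between the 2. ZNF433 was lowest, at 1.37 TPM with Dox and 2.58 TPM without Dox. Its TPM lay on different transcripts in the 2 libraries, and its estimated fragments, 52 with Dox and 39 without Dox, gave a ratio of 1.01 (0.66 to 1.57).

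The largest short-arm cluster runs from ZNF101 to ZNF254 (chr19:19668796-24129961) and had the lowest median of the 8 on the TPM scale. Of its 37 genes, 19 were compared and 9 were listed at 0 in both libraries, among them ZNF85, ZNF98, ZNF257, ZNF676 and ZNF729. Of the 19, 15 were lower and 4 higher with Dox, and their median log2 fold change was -0.36. The quartiles of the 19 were -0.49 and -0.05. Summed over the 19, the level was 88.8 TPM with Dox and 109 TPM without Dox. Over the 9 genes at a mean of at least 5 TPM, the median was -0.089. The other 166 compared genes of chromosome 19 had 102 above 0 and 64 below.

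Individual genes of this cluster, in order along the chromosome, show how it varied. ZNF101 had 10.1 TPM with Dox and 16.1 TPM without Dox, a log2 fold change of -0.62. Its fragment ratio was 0.70 (0.61 to 0.79). ZNF682 was at 0.65 TPM with Dox and 1.48 TPM without Dox, of which 1.16 TPM lay on a 450-nt transcript listed at 0 with Dox. On transcripts of at least 600 nt its log2 fold change in TPM plus 1 was 0.33. Its estimate there was 16 fragments with Dox and 13 without Dox, a log2 ratio relative to depth of -0.10, so its direction is uncertain. ZNF430 had 2.54 TPM with Dox and 4.003 TPM without Dox, with a fragment ratio of 0.76 (0.61 to 0.94). The levels of ZNF714 were 7.29 TPM with Dox and 11.6 TPM without Dox, a log2 fold change of -0.60 and a fragment ratio of 0.65 (0.58 to 0.74). For ZNF431 they were 6.23 TPM with Dox and 9.22 TPM without Dox, and for ZNF738 1.99 TPM with Dox and 3.20 TPM without Dox. On transcripts of at least 600 nt, ZNF101, ZNF430, ZNF714, ZNF431 and ZNF738 had log2 ratios between -0.68 and -0.40.

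Others of the 19 differed less or in the opposite direction. ZNF91, which represses SVA elements, had 11.8 TPM with Dox and 12.6 TPM without Dox, and a fragment ratio of 0.90 (0.81 to 1.00). ZNF675, known as an inhibitor of TRAF6 signalling, was highest, at 5.55 TPM with Dox and 4.48 TPM without Dox. ZNF254 was at 8.83 TPM with Dox and 7.44 TPM without Dox. ZNF429 and ZNF253 were the other 2 above 0, the first at 4.29 TPM with Dox and 3.50 without Dox, the second at 6.56 TPM with Dox and 6.54 without Dox. Small and large differences alternated along the cluster, with log2 fold changes of -0.05 for ZNF14, -0.14 for ZNF66 and -0.06 for ZNF708, and of -0.40 for ZNF43 and -0.36 for ZNF724 nearer the centromere.

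**Figure D3:**
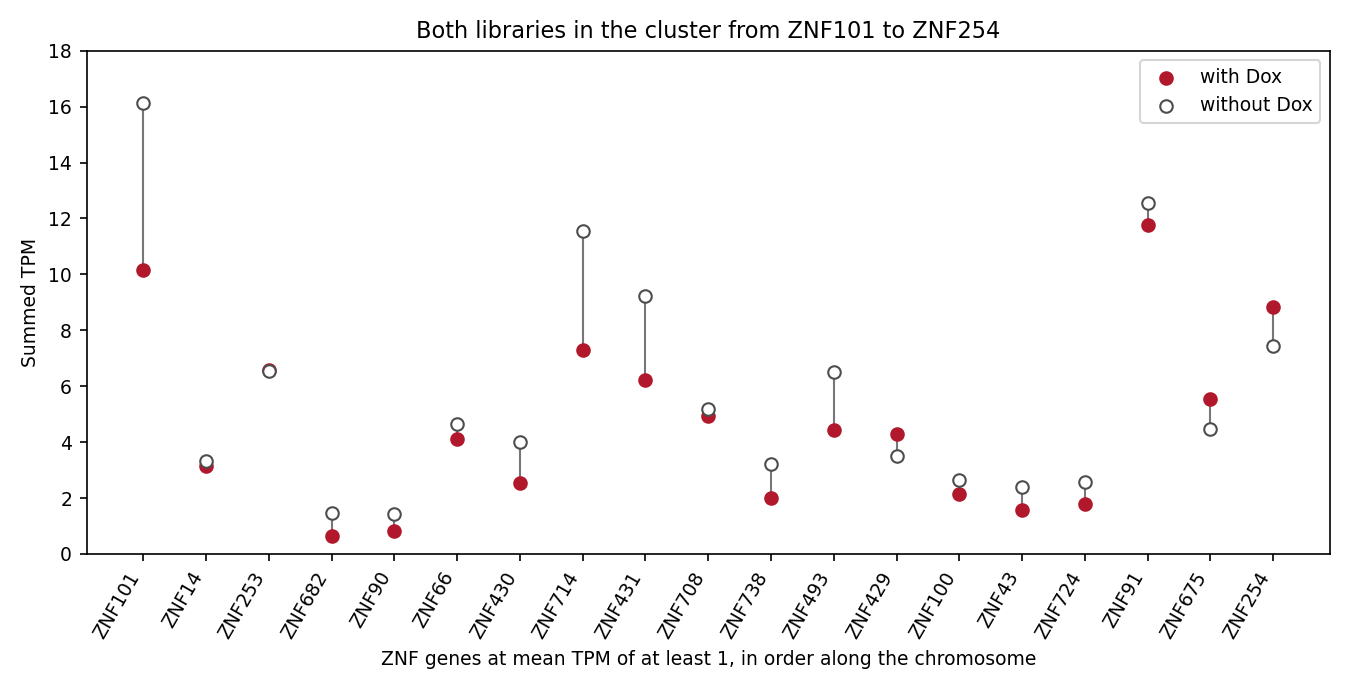
Summed TPM with Dox (filled) and without Dox (open) of the 19 compared genes from ZNF101 to ZNF254, in order along the chromosome. The filled point is the lower of the pair in 15 genes, by most in ZNF101, which had 10.1 TPM with Dox and 16.1 TPM without Dox.

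Fragments could be estimated for 15 of the 19, which leaves out genes with much of their TPM on transcripts under 600 nt. Of these 15, 12 had a ratio below 1 and 3 above, with a median log2 ratio of -0.30. Pooled, they had 3770 fragments with Dox and 3400 without Dox, 0.84 times as many relative to depth. Over all 129 chromosome 19 ZNF genes with an estimate, 8 were at least 1.5-fold lower in fragments, and 5 of the 8 (ZNF90, ZNF714, ZNF738, ZNF43 and ZNF724) belong to this cluster. By estimated fragments the 5 genes from ZNF554 to ZNF77 had a lower median, at -0.37. The genes of the ZNF101 cluster resemble each other, and a median of 23.9% of the 31-base words of a main transcript occurred in transcripts of other genes. For the 4 of the 19 with less than 10% of such words, the median log2 fold change was -0.54. It rests on ZNF101 at -0.62, ZNF682 at -0.59, ZNF738 at -0.49 and ZNF14 at -0.05, and the direction of ZNF682 is uncertain. In the cluster from ZNF653 to ZNF791 the shared part was 23.8%, with a median log2 fold change of 0.08 in TPM and a median log2 fragment ratio of -0.11. The part of shared words in these values was not tested.

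Likeness extends to the promoters. Of the 17 compared genes of the ZNF101 cluster with a promoter in the RefSeq table, 10 carry the same 12 bases, GAGGAAGCCCTG, at 205 to 195 bases before the start. These windows are shown because the genes that hold the word were nearly all lower with Dox. The word is in capitals, and the surrounding bases show how far the duplicates still match.
ZNF66 (chr19:20776075-20776134, plus strand): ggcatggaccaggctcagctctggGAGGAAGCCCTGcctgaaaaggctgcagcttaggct
ZNF430 (chr19:21020433-21020492, plus strand): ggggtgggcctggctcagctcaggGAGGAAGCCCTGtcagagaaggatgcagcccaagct
ZNF714 (chr19:21081974-21082033, plus strand): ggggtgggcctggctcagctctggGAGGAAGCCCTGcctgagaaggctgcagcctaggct
ZNF431 (chr19:21141811-21141870, plus strand): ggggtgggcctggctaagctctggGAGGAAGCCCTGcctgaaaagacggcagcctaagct
ZNF493 (chr19:21396907-21396966, plus strand): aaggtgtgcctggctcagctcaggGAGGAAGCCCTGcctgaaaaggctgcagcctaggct
ZNF100 (chr19:21767741-21767800, minus strand): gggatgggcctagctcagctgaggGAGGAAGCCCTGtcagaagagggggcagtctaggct
ZNF43 (chr19:21836349-21836408, minus strand): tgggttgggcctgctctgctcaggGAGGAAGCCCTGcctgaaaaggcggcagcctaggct
ZNF724 (chr19:23250558-23250617, minus strand): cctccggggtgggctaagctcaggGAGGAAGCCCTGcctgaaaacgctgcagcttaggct
ZNF91 (chr19:23395641-23395700, minus strand): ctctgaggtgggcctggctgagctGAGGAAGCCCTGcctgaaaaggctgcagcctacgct
ZNF254 (chr19:24086968-24087027, plus strand): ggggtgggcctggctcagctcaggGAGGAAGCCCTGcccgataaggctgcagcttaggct

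On either strand, 0.0842% of all promoters in the table held this word, and 14 of its 23 carriers were chromosome 19 ZNF genes. Of the 10 genes shown, 9 were below 0, with a median log2 fold change of -0.38. The 7 without the word had a median of -0.06, and 5 of them were below 0. The word was picked as the most frequent in the cluster, and the split is a description.

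None of the 4 described clusters on the long arm had a median below 0, although that from ZNF175 stood at -0.05 in estimated fragments and that from ZNF628 at -0.02 over genes at a mean of at least 5 TPM. From ZNF565 to ZNF573 (chr19:36182060-37817300), 23 of 27 genes were compared, with a median of 0.16, 17 above 0 and 6 below. Their sum was 201 TPM with Dox and 161 TPM without Dox, much of it from ZNF146. ZNF461, whose rat counterpart was named as a gonadotropin-inducible repressor, was at 5.10 TPM with Dox and 2.67 TPM without Dox. On transcripts of at least 600 nt its log2 ratio was 0.13. ZNF529 had 8.51 TPM with Dox and 5.599 TPM without Dox, with a fragment ratio of 1.34 (1.16 to 1.56). Among the 13 genes with a fragment estimate, 11 had a ratio above 1 and 2 below, and the median log2 ratio was 0.26. ZNF565 was the lowest of the cluster, at a log2 fold change of -0.45 and a fragment ratio of 0.80 (0.55 to 1.15).

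The cluster from ZNF575 to ZNF296 (chr19:43525497-45076588) had the same median, 0.16, over 20 of its 24 genes, with 15 above 0 and 5 below. ZNF283 was highest, at 5.31 TPM with Dox and 3.21 TPM without Dox, a log2 fold change of 0.58 that lies just short of 1.5-fold. ZNF428 was lowest, at -0.49. ZNF224, which represses the aldolase A gene, had 7.35 TPM with Dox and 6.48 TPM without Dox, and a fragment ratio of 1.26 (1.05 to 1.51). In this cluster 9 of 18 promoters share the word GAATTCTGGGAA, between 123 and 29 bases upstream of the start, and their windows are shown as an example from the long arm.
ZNF230 (chr19:44002810-44002869, plus strand): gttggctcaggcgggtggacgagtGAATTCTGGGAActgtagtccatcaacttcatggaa
ZNF222 (chr19:44025252-44025311, plus strand): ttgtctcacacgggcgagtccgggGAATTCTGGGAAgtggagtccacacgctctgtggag
ZNF284 (chr19:44072064-44072123, plus strand): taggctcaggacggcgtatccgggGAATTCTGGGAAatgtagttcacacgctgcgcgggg
ZNF224 (chr19:44094233-44094292, plus strand): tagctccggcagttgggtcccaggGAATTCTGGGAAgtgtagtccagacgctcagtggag
ZNF225 (chr19:44113290-44113349, plus strand): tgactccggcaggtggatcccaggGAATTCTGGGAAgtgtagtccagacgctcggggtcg
ZNF234 (chr19:44141501-44141560, plus strand): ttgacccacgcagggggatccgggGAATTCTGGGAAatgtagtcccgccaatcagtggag
ZNF226 (chr19:44165018-44165077, plus strand): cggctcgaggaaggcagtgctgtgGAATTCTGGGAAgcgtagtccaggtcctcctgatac
ZNF235 (chr19:44305028-44305087, minus strand): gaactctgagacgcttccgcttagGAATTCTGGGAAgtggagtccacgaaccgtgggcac
ZNF112 (chr19:44356770-44356829, minus strand): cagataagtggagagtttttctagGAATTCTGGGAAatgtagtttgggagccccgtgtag

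Of all promoters in the table, 0.0916% held this word on either strand. Of the 9 genes shown, 8 were above 0, with a median of 0.16, and of the 9 without it 5 were above 0, with a median of 0.06. The word was again chosen as the most frequent one. The most frequent word of the cluster from ZNF565 to ZNF573 went the other way, with a median of 0.11 over its 7 carriers, 4 of them above 0, and of 0.16 over the 14 others, 12 of them above 0. For the words of the clusters from ZNF557, ZNF653, ZNF175 and ZNF628, carriers had medians of -0.08, 0.08, 0.01 and 0.07. Genes there without the word had 0.13, 0.02, 0.05 and 0.05. From ZNF554 to ZNF77 the 4 carriers were all below 0, and the 1 gene without the word was above 0.

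The cluster from ZNF175 to ZNF331 (chr19:51571298-53580269) was balanced, with 16 genes above 0 and 14 below among 30 of 40 compared, and a median of 0.03. It also held some of the widest differences. ZNF528 had 6.03 TPM with Dox and 3.18 TPM without Dox, ZNF480 had 11.97 TPM with Dox and 6.77 TPM without Dox, and ZNF83 had 11.5 TPM with Dox and 7.05 TPM without Dox. On transcripts of at least 600 nt, the log2 ratios of ZNF528, ZNF480 and ZNF83 were 0.69, 0.01 and 0.22. ZNF615 was the lowest of all 185, at 3.76 TPM with Dox and 6.70 TPM without Dox, a log2 fold change of -0.69. Toward the end of the long arm, the cluster from ZNF628 to ZNF446 (chr19:55476332-58481230) had 45 of 59 genes compared, a median of 0.05, 27 above 0 and 18 below. Its highest was ZNF583, at 2.81 TPM with Dox and 1.37 TPM without Dox, with a fragment ratio of 1.66 (1.23 to 2.25). Its lowest was ZNF544, at 5.52 TPM with Dox and 8.50 TPM without Dox, a log2 fold change of -0.54. That difference lay on transcripts under 600 nt, which held 1.92 TPM with Dox and 6.42 TPM without Dox, and on the longer ones the log2 ratio of ZNF544 was 0.76, from 187 fragments with Dox and 84 without Dox. ZNF446, the last along the chromosome, had 2.39 TPM with Dox and 1.64 TPM without Dox, a log2 fold change of 0.36. Its log2 ratio on the longer transcripts was also opposite in sign, at -0.32.

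**Figure D4:**
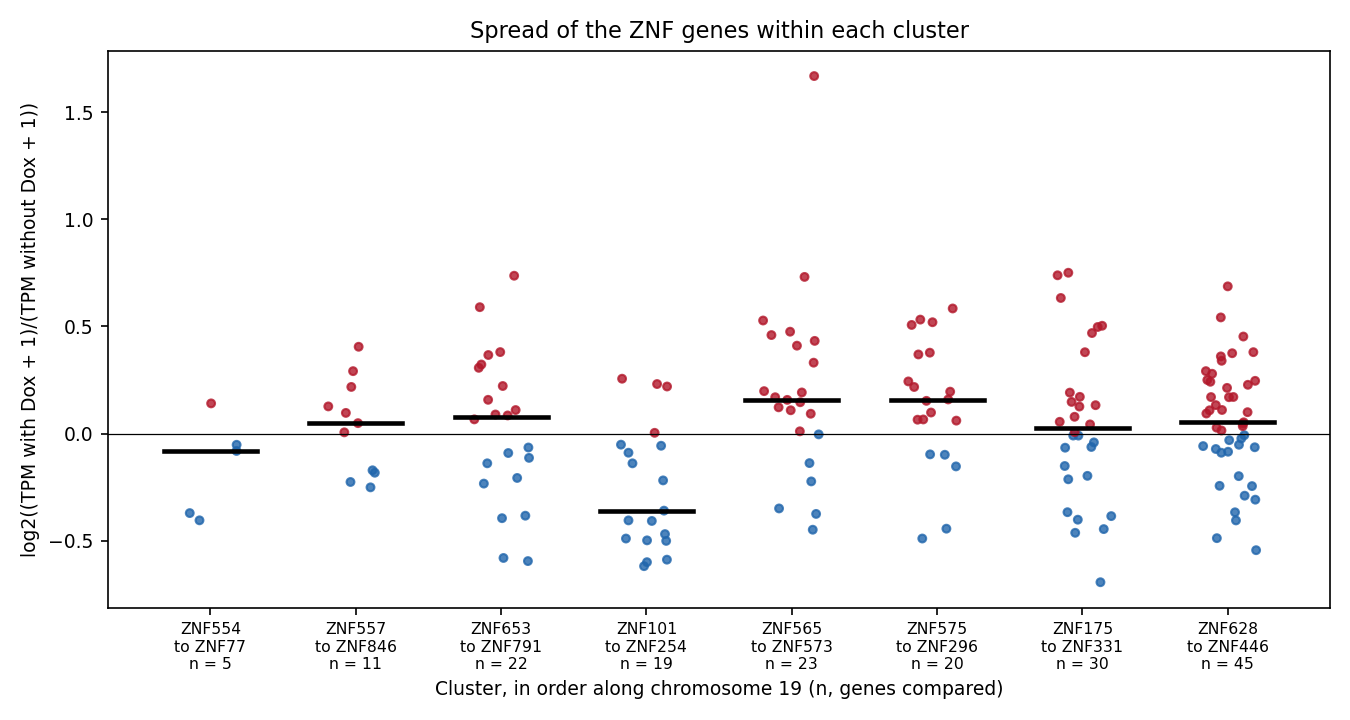
The log2 fold change, with Dox over without Dox, of the compared genes in each of the 8 clusters, in order along the chromosome. Each point is a gene, red above 0 and blue below, and the bar is the median. The medians run from -0.36 in the cluster from ZNF101 to ZNF254 to 0.16 in those from ZNF565 to ZNF573 and from ZNF575 to ZNF296, and the points of every cluster fall on both sides of 0.

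The widest difference of all belonged to a gene outside these clusters. ZNF114 (chr19:48270102-48287608), a KRAB gene with 3 C2H2 patterns in its longest coding sequence, was at 30.6 TPM with Dox and 6.26 TPM without Dox, a log2 fold change of 2.12. Its 2206-nt coding transcript had 12.2 TPM with Dox and 3.13 TPM without Dox, and its 2478-nt coding transcript had 12.9 TPM with Dox and 1.07 TPM without Dox. The estimate was 1031 fragments with Dox and 142 without Dox, 5.51 times as many relative to depth (4.62 to 6.61). Another coding transcript, of 1742 nt, had 2.42 TPM with Dox and 1.01 TPM without Dox, so all 3 were higher with Dox. The 2206-nt transcript holds 1 match to the pattern of hairpins that Smaug proteins are known to bind, with CNGG opening a short loop. That is 0.45 per kb. Stem arms of 4 bases had to pair, with G-T pairs allowed. No folding was computed, so a match describes the letters and shows neither a hairpin nor binding. By the same pattern ZNF101 has 1, or 0.87 per kb, and ZNF714, with a main transcript of 6812 nt, has 7, or 1.03 per kb. The first match of each is shown, with the loop in capitals between stem arms of 4 bases.
ZNF114 (transcript positions 1961 to 1975): gtggCAGGTGCctgt
ZNF101 (transcript positions 958 to 970): atgtCAGGAatgt
ZNF714 (transcript positions 14 to 27): gcagCTGGAGctgc

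For several other genes past 1.5-fold, short transcripts carried much of the difference, though ZNF583, ZNF433 and ZNF714 had 0 TPM on transcripts under 600 nt. ZNF573 was at 8.59 TPM with Dox and 2.02 TPM without Dox, a log2 fold change of 1.67. A 237-nt noncoding transcript, listed at 0 without Dox, held 5.05 TPM with Dox, and that length is below the offset at which TPM converts to fragments. On transcripts of at least 600 nt, the log2 ratio of ZNF573 was 0.22, from 92 fragments with Dox and 60 without Dox. ZNF480 had 4.84 TPM with Dox and 0 without Dox on transcripts under 600 nt, and its log2 ratio on the longer ones was 0.01. ZNF615 had 0.42 TPM with Dox and 2.93 TPM without Dox on the shorter ones, and its ratio on the longer ones was -0.14. Of the 14 genes past 1.5-fold in either direction, 5 were past it the same way on long transcripts alone. These were ZNF114, ZNF528, ZNF20, ZNF583 and ZNF714, with ZNF101 close by at -0.52. The matching count over all genes past 1.5-fold was not made, so this loss cannot be called particular to these genes. In summed TPM of transcripts of at least 600 nt, 4 of 177 ZNF genes were higher and 3 lower. Of all 11211 genes so compared, 4.36% were higher and 2.94% lower. Over all 185 genes, 23 had a main transcript that was listed at 0 in 1 library. Leaving such genes out kept 162 of the 185 and 10998 of all 11582 genes, so they were more frequent among the ZNF genes.

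**Figure D5:**
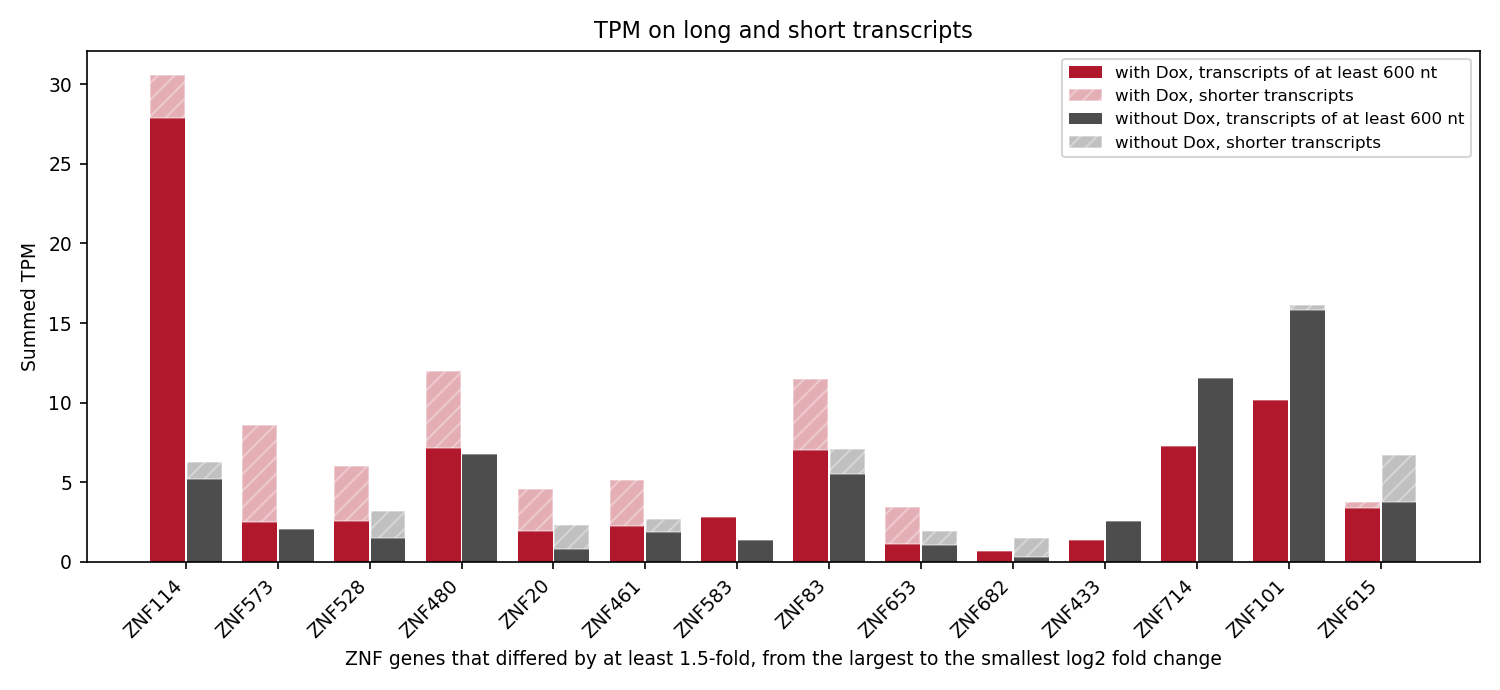
Summed TPM of the 14 genes past 1.5-fold, with Dox (red, left) and without Dox (grey, right), split into transcripts of at least 600 nt (solid) and shorter ones (hatched). For ZNF573 and ZNF480 the part of the bar with Dox above that without Dox is mostly hatched, and for ZNF114 it is mostly solid, while ZNF714 and ZNF101, lower with Dox, have almost wholly solid bars.

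By estimated fragments, ZNF114, ZNF557 and ZNF583 stood higher by 1.5-fold or more with Dox, 3 of the 129 chromosome 19 ZNF genes or 2.33%, beside 4.59% of all 9758 genes with an estimate. The 8 at least 1.5-fold lower are 6.20%, beside 4.57%. Their median log2 fragment ratio was 0.02, against -0.02 over all genes. ZNF557 shows how the scales can part, with 1.43 TPM with Dox and 1.09 TPM without Dox but a fragment ratio of 2.47 (1.64 to 3.83).

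In sequence, the 185 genes differed from their neighbours on the chromosome. The GC content of the main transcript had a median of 43.1%, against 60.8% over other protein-coding genes of chromosome 19 and 48.7% over all genes. They had a median of 12 C2H2 patterns in the longest coding sequence, and ZNF91 had the most, 31. The pattern of the KRAB A box was found in 155 of the 185. Those 155 had a median log2 fold change of 0.07, and the 30 without it 0.05. Matches to the CNGG hairpin pattern had a median of 1.19 per kb of main transcript, against 1.81 over all genes and 3.10 over other protein-coding genes of the chromosome. Across the 185 genes, the Spearman correlation of hairpin matches per kb with the log2 fold change was -0.0029, and that of GC content was -0.03. Across all 11582 genes compared, these correlations were -0.12 and -0.11. The ZNF101 cluster had a median GC content of 37.5% and 0.85 hairpin matches per kb. The cluster from ZNF565 to ZNF573, with the opposite sign, had 38.7% and 1.499.

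Among 11 of these genes looked up for their known part in silencing repeats or in gene repression, 9 were compared, with 6 above 0 and none past 1.5-fold. Of all genes, 53.0% were above 0, 5.32% at least 1.5-fold higher and 3.90% lower, so none among 9 lies near those shares. ZNF274, which brings SETDB1 to the 3′ ends of zinc-finger genes themselves, had 13.03 TPM with Dox and 10.9 TPM without Dox, and a fragment ratio of 1.23 (1.07 to 1.43). ZNF808, which silences MER11 elements, was at 4.36 TPM with Dox and 2.80 TPM without Dox. ZNF649 had 2.37 TPM with Dox and 2.39 without Dox, ZNF765 had 4.30 TPM with Dox and 4.10 without Dox, and ZNF382 had 5.51 TPM with Dox and 4.88 without Dox. The imprinted gene ZNF331 was at 4.62 TPM with Dox and 4.07 TPM without Dox, and ZNF587 at 13.1 TPM with Dox and 13.6 TPM without Dox. ZNF93, a repressor of L1 elements, fell under the minimum, at 0.15 TPM with Dox and 0.49 TPM without Dox. ZNF534 was listed at 0 in both libraries.

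Transcripts of the central KRAB cofactors were present in both libraries. TRIM28, whose gene lies near the end of the long arm, was at 266 TPM with Dox and 310 TPM without Dox, and SETDB1 at 23.0 TPM with Dox and 21.8 TPM without Dox. Of 25 genes listed for this machinery, 23 were compared, 1 was at least 1.5-fold higher and 2 were lower, or 4.35% and 8.70%, beside 5.32% and 3.90% of all genes. The median log2 fold change was -0.01, and EHMT2 was listed at 0 in both libraries. The higher one was DAXX, a histone H3.3 chaperone, at 19.5 TPM with Dox and 10.9 TPM without Dox. The lower ones were the maintenance methyltransferase DNMT1, at 9.23 TPM with Dox and 19.1 TPM without Dox, and its partner UHRF1, at 0.90 TPM with Dox and 5.38 TPM without Dox. Fragment ratios were 0.49 (0.44 to 0.54) for DNMT1 and 0.14 (0.10 to 0.19) for UHRF1. Their part in the values of the ZNF genes was not tested. None of 9 genes listed for the HUSH silencing complex was past 1.5-fold. Of 16 zinc-finger genes of chromosome 19 with other symbols, 9 were compared, with a median of 0.13, and ZFP36, an RNA-binding protein of the CCCH type, was the 1 past 1.5-fold, at 13.8 TPM with Dox and 5.81 TPM without Dox.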

How the data were processed

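The authors deposited TPM values for 184844 Ensembl transcripts in 1 table with 1 column per library. Trimmomatic, Salmon and the build GRCh38.p13 are named in the submitters' processing notes. Tool versions and options were not given in the sources used here. Salmon shares fragments among transcripts that match equally well, so paralogues can exchange TPM.

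Transcripts were matched by identifier to GENCODE release 29 (161798 matched, 93.3% of TPM in each library) and summed per gene under current symbols. ZNF875 is included by its current symbol. Genes at a mean of at least 1 TPM were compared with a pseudocount of 1 TPM. Depth was estimated from low TPM values of single-transcript genes. Of these, 410 of 475 with Dox and 398 of 463 without Dox lay within 0.1 of a whole number of fragments after fitting, where 20% would by chance with a fixed unit. Fragment ratios, with Clopper-Pearson intervals of 95%, are given for genes with at least 80% of TPM on transcripts of at least 600 nt. The interval rests on that estimated depth. Log2 ratios given for single genes on transcripts of at least 600 nt are those of estimated fragments relative to depth, without a pseudocount. C2H2 and KRAB patterns were counted in translated GENCODE coding sequences, since no protein table was used here. RefSeq promoters matched 215 of the 247 genes, 166 of them compared.

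The genes, lists and named-gene rule were chosen with earlier results of these data known. Named are SAMD4B, TRIM28, SETDB1, the 10 largest and 10 smallest fold changes, the 5 most abundant, the first and last gene, the highest and lowest of each cluster and the listed repressors. One marker of another lineage that was looked up is not reported here. Any other gene named was chosen after its values were seen. The KRAB pattern and the depth fit were each revised once after a first result, and the promoter words, hairpin examples and the short-arm balance without the ZNF101 cluster were also chosen after values were seen. Sites of several other factors were looked for in a few promoters and are not reported. The depth and fold steps were tested on simulated data. Python 3.11.15, pandas 2.3.3 and scipy 1.17.1 were used.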

Additional observations from a re-analysis of the deposited data

How the results depend on the processing

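With 1 library per group, no library could be left out and no difference has an error between replicates. No paired analysis was possible because each group has 1 library and no test was made. Of 13 alternatives, 11 were planned and 2 (long transcripts alone, and genes sharing few words) were chosen after seeing the data. The median of the ZNF101 cluster stayed below 0 under all 13, between -0.54 and -0.09, and those of the clusters from ZNF565 and from ZNF575 stayed above 0 (0.07 to 0.33 and 0.07 to 0.21). Counts of genes past 1.5-fold were the least stable, higher and lower with Dox in turn: 19 and 15 at a pseudocount of 0.1 TPM, 2 and 0 at 5 TPM, 4 and 3 at a mean of at least 5 TPM, 3 and 8 in estimated fragments, and 4 and 3 on transcripts of at least 600 nt. The count lower was 2 without genes whose main transcript is at 0 in 1 library, and 3 among genes with under 10% of 31-base words shared. Background shares moved alongside, for example to 7.23% and 5.52% at 0.1 TPM. The ZNF101 median was -0.50 at a pseudocount of 0.1 TPM, -0.14 at 5 TPM, -0.11 with no filter, -0.089 at a mean of at least 5 TPM (9 genes), -0.22 on long transcripts and -0.54 with few shared words (4 genes). The ZNF653 median turned below 0, to -0.078 at a mean of at least 5 TPM, -0.11 in fragments, -0.065 without genes whose main transcript is at 0 in 1 library, -0.045 on long transcripts and -0.025 with few shared words. The ZNF557 median was -0.083 and the ZNF565 median 0.33 at a mean of at least 5 TPM. In fragments the ZNF565 median was 0.26 and the ZNF554 median -0.37, and the ZNF554 median was -0.23 on protein-coding transcripts alone. Among genes past 1.5-fold, ZNF433 turned to 0.0044 in fragments and ZNF682 to 0.33 in TPM plus 1 on long transcripts. Below that fold, ZNF544 turned to 0.58, ZNF444 to 0.086 and ZNF446 to -0.20, also in TPM plus 1 on long transcripts. The cause was not tested. Setting the median log2 ratio of all genes to 0, a shift of 0.02 before the pseudocount, gave 8 higher and 6 lower of 185. The shares of all genes were then 4.92% and 4.10%.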
